A study of Mus musculus with 66 samples.

Results

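Ketone bodies are made in mitochondria from the acetyl-CoA of fatty acid oxidation, and the genes described here are Acat1, Bdh1 and Oxct1, which act on ketone bodies or their precursor, and Cpt1a and Cpt2, which pass long-chain fatty acids into mitochondria as carnitine esters. They were taken as all rows of the deposited expression table with 1 of these 5 gene symbols. Each symbol had 1 transcript, so 5 of the 9481 transcripts in the table (8978 gene symbols) are described, and all 5 were tested. The table lists only transcripts whose protein had been quantified in the study, so genes outside it are not analysed here.

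The samples were cultures of mouse small-intestinal organoids, which are self-organising epithelial structures grown from intestinal stem cells. All 3 cultures carried the Lgr5 GFPDTR/+ allele (C57BL/6 and 129/ola background), a knock-in of green fluorescent protein and the diphtheria toxin receptor at the stem cell gene Lgr5, and no age was given in the sources used here. ENR medium contained epidermal growth factor, Noggin and R-spondin-1. The culture described by the study as stem cell enriched, CV, was ENR with 3 μM CHIR99021, an inhibitor of the kinase GSK3, and 1 mM valproic acid, a fatty acid that inhibits histone deacetylases. The stem cell depleted culture, EN, was ENR without R-spondin-1. RNA was sequenced in 4 libraries of each culture. Accessible chromatin (ATAC) was scored in 4 libraries of each culture, and the histone marks H3K27ac, H3K4me3 and H3K27me3 in 3 of each. For these marks the labels list 4 libraries of each culture, and 5 for H3K27ac in CV. Why the remaining libraries had no scores was not stated. Hnf4g, a nuclear receptor that binds DNA, was profiled by chromatin immunoprecipitation in 1 library of each culture. The effects of CHIR99021 and valproic acid cannot be told apart, nor can those of the media and of the time spent in them, which was longer for CV. The labels do not say that libraries came from separate cultures, so p-values measure the spread between libraries, which may be technical.

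In ketone body synthesis, a thiolase such as Acat1 joins acetyl-CoA to acetyl-CoA, acetoacetate is formed in further steps, and Bdh1 reduces acetoacetate to β-hydroxybutyrate. Oxct1 works in the opposite direction, since it activates acetoacetate so that Acat1 can split it into acetyl-CoA for energy. Cpt1a, in the outer mitochondrial membrane, forms acylcarnitines and is inhibited by malonyl-CoA, and Cpt2, in the inner membrane, turns them back into acyl-CoA for β-oxidation. In the small intestine, ketone body synthesis has been linked to crypt stem cells and fat oxidation to both stem cells and absorptive enterocytes.

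The culture labels were checked against marker genes chosen for this purpose. Relative to EN, CV had more of the stem cell markers. Relative to ENR, the summed levels of these markers and of the proliferation genes were lower in CV. A sum can be carried by a single abundant gene, and the markers were not compared gene by gene between CV and ENR. The study reported stem cell markers as enriched in CV and Lgr5-positive cells as its dominating cell type. CV is called by its medium below. The 5 stem cell markers, Lgr5 and Olfm4 among them, were all lower in EN than in CV, and their summed level in CPM, counts scaled to a common library total, was 457 to 518 in CV, 1710 to 1850 in ENR and 36 to 40.1 in EN. The 7 enterocyte markers were all higher in EN, with sums of 5250 to 5690, 4120 to 4840 and 23900 to 27800 CPM. The 4 goblet cell markers were also all higher in EN, at 608 to 697, 1500 to 1640 and 7410 to 8260 CPM. Sums for the 3 Paneth cell markers were 2330 to 2620, 3010 to 3150 and 1060 to 1270 CPM, for the 3 enteroendocrine markers 24.1 to 35.9, 491 to 510 and 1280 to 1760, and for the 2 tuft cell markers 0.539 to 2.41, 24.3 to 27 and 55.9 to 74.4. Those for the 3 proliferation genes were 961 to 1010, 1310 to 1360 and 156 to 164 CPM, for the 4 blood and stromal markers present 3.47 to 4.72, 8.31 to 9.98 and 23.6 to 29.4, and for the 4 liver and muscle markers 13.2 to 16.9, 29.5 to 34.9 and 13.2 to 15.4. The part of these shifts in the results below was not tested, and in bulk libraries fewer cells of a type and less RNA per cell cannot be told apart. The 12 RNA libraries held between 5630951 and 8859744 counts, and those of the 5 genes ranged from 243 to 3465.

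The 4 sequences below are shown because the Hnf4g reads and histone scores reported further on bear on them. The first is the central 300 bases of an intronic region near the start of Cpt1a, and it carried the most Hnf4g reads of any Cpt1a region. The others are the 250 bases before the annotated start of Cpt2, whose RNA and acetylation were both higher in EN, of Acat1, whose RNA was lower in EN, and of Cpt1a. All were read from the mouse genome NCBIM37, which is mm9. The intron sequence is the plus strand of chr19:3325404-3325703, and its capitals mark the word GGTCAAAG, here on the minus strand, which is shared by many binding sites of HNF4 and related receptors. In the promoters, at chr4:107596216-107596465 (minus strand) for Cpt2, chr9:53418488-53418737 (minus strand) for Acat1 and chr19:3323051-3323300 (plus strand) for Cpt1a, capitals mark GC boxes (GGGCGG) and CCAAT boxes (CCAAT) on either strand.
Cpt1a intron: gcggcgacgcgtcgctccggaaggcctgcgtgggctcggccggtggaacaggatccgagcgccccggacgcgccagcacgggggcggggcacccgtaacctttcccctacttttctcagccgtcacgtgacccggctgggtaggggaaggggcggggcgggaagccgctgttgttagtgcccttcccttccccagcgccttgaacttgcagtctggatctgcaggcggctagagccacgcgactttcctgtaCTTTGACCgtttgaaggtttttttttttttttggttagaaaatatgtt
Cpt2 promoter: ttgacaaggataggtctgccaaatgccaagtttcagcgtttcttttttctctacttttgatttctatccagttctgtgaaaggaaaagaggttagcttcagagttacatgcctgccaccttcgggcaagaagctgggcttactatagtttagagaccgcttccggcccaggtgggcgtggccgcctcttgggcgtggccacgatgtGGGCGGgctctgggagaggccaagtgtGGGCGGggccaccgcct
Acat1 promoter: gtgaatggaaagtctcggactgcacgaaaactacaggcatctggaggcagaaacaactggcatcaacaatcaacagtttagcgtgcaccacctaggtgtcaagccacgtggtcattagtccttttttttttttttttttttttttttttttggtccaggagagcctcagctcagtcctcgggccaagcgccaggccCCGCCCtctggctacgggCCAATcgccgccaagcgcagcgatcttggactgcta
Cpt1a promoter: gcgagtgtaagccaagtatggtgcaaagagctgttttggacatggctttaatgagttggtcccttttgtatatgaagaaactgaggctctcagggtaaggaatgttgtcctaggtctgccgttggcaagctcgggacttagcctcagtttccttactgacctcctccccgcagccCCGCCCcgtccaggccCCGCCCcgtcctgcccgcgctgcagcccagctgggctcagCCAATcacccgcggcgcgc

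For HNF4 sites, 3 words were searched on both strands, namely CAAAGTCCA, CAAAGGTCA and GGTCAAAG, the last added after the intron window had been read. CAAAGGTCA and GGTCAAAG can overlap within 1 site. At least 1 of the 3 words was in 6.42% of the 94340 central windows of 300 bases over all regions. It was in 10.7% of the 946 windows with the most Hnf4g reads per kb in EN. At the 5 genes, 1 of the 36 windows held such a word, the Cpt1a intron shown above. That match is GGTCAAAG, the word added after this window had been read, so it cannot count as a result of the search. CAAAGTCCA and CAAAGGTCA were in none of the 36 windows, against 2.28% and 2.11% of all windows. None of the 5 promoters held any of the 3 words, against 1.47% of 22380 promoters of protein-coding genes. GC boxes were in 39.6% of those promoters and CCAAT boxes in 35.0%. Cpt2 had 2 GC boxes, which ended 38 and 11 bases before the start, and Cpt1a had 2, which ended 69 and 53 bases before it, and a CCAAT box 14 bases before it. Acat1 had 1 GC box and 1 CCAAT box, and Oxct1 and Bdh1 had neither. The Bdh1 window lies before its first annotated start, which is weakly marked in these cultures, and the bases before its other start were not searched. A match is a description of letters and does not show binding.

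All 5 genes changed between EN and CV, but not in 1 direction. Acat1, Bdh1 and Oxct1 RNA fell to 37.6%, 41.1% and 48.9% of the CV level in EN and Cpt1a to 68.8%, whereas Cpt2 rose 1.59-fold. Across all 9288 transcripts tested, 76.4% changed in this comparison at an adjusted p under 0.01 (35.2% higher, 41.2% lower), so that 5 of 5 called is close to what most transcripts did, and only the sizes and directions of the changes tell the members apart. Against ENR, the members called numbered 4 of 5 for EN, where 72.7% of all transcripts were called, and 4 of 5 for CV, where 60.0% were. The 3 comparisons share libraries, so their values are given side by side and not correlated.

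**Figure D1:**
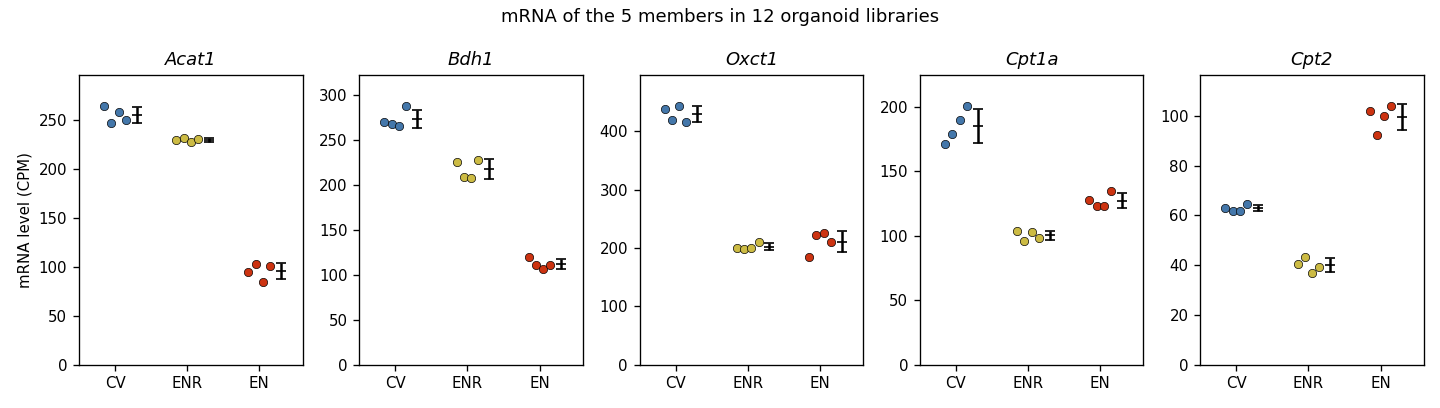
mRNA levels (y axis, CPM after TMM scaling, linear from 0) of the 5 genes in each of the 12 libraries, grouped by culture (x axis: CV, ENR, EN); each point is 1 library, and the bar beside each group is its mean and SD (n = 4). Acat1 and Bdh1 were lowest in EN, Oxct1 and Cpt1a highest in CV, and Cpt2 highest in EN, with all 4 EN libraries between 92.3 and 104 CPM.

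Acat1 (NM_144784.3), the mitochondrial acetoacetyl-CoA thiolase, measured 264, 246, 258 and 250 CPM in the 4 CV libraries, 229, 231, 227 and 230 in ENR, and 94.2, 103, 84.2 and 101 in EN. Every EN library lay below every other library. The level in EN was lower than in CV by 1.41 on the log2 scale (SE 0.05, adjusted p = 7.46e-13, edgeR quasi-likelihood test), and lower than in ENR by 1.26 (adjusted p = 3.74e-12). The libraries of CV and ENR did not overlap, but their difference of 0.15 log2 missed the threshold (adjusted p = 0.0104, edgeR).

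Bdh1 (NM_001122683.1), β-hydroxybutyrate dehydrogenase, measured 270, 268, 266 and 288 CPM in CV, 226, 209, 208 and 228 in ENR, and 120, 111, 106 and 111 in EN. The groups did not overlap in any pair. EN was lower than CV by 1.28 log2 (SE 0.05, adjusted p = 1.04e-12) and lower than ENR by 0.96 (adjusted p = 4.95e-11), and CV was higher than ENR by 0.33 (adjusted p = 1.2e-05). Over the 12 libraries, the log2 CPM of Acat1 and Bdh1 had a Pearson correlation of 0.979, a description of libraries that share 3 media.

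Oxct1 (NM_024188.6), the transferase that activates acetoacetate, measured 438, 420, 444 and 417 CPM in CV, 200, 199, 200 and 211 in ENR, and 185, 222, 225 and 210 in EN. CV stood apart, and the ENR and EN libraries overlapped. CV was higher than ENR by 1.08 log2 (SE 0.05, adjusted p = 1.02e-10) and EN lower than CV by 1.03 (adjusted p = 4.18e-11). Between EN and ENR the difference was 0.05 log2 (SE 0.05, adjusted p = 0.392), so no difference larger than the spread was detected there.

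Cpt1a (XM_006531659.2), the outer-membrane transferase, measured 171, 179, 190 and 201 CPM in CV, 104, 95.9, 103 and 98.2 in ENR, and 128, 123, 123 and 135 in EN. The 3 cultures did not overlap and were ordered CV, EN, ENR. CV was higher than ENR by 0.89 log2 (SE 0.05, adjusted p = 9.87e-10), EN was lower than CV by 0.54 (adjusted p = 9.97e-08), and EN was higher than ENR by 0.35 (adjusted p = 2.54e-05).

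Cpt2 (NM_009949.2), the inner-membrane transferase, measured 62.9, 61.9, 61.9 and 64.6 CPM in CV, 40.3, 43.4, 36.9 and 39.1 in ENR, and 102, 92.3, 100 and 104 in EN. It was the only member with its highest level in EN under this scaling. EN was higher than ENR by 1.32 log2 (2.50-fold, SE 0.05, adjusted p = 4.41e-12) and than CV by 0.67 (adjusted p = 8.54e-09), and CV was higher than ENR by 0.66 (adjusted p = 6.41e-08). Acat1 and Cpt2 had a Pearson correlation of -0.807 over the 12 libraries.

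**Figure D2:**
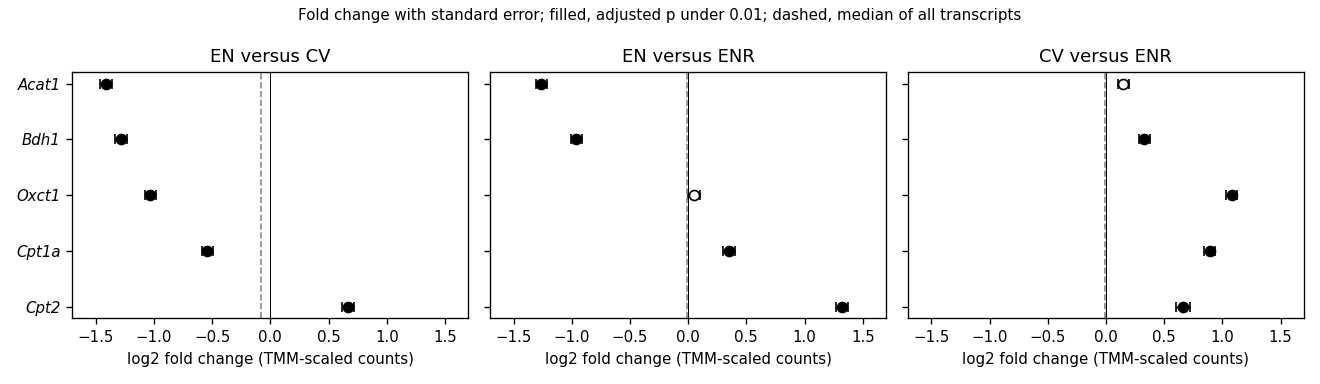
log2 fold change of the 5 genes (x axis, TMM-scaled counts) in 3 comparisons, with standard errors; filled points passed an adjusted p under 0.01, open points did not, and the dashed line is the median of all transcripts. In EN relative to CV the genes ran from -1.41 for Acat1 to 0.67 for Cpt2, and the 2 open points are Oxct1 in EN versus ENR and Acat1 in CV versus ENR.

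These fold changes depend on how libraries are scaled. Scaling to the 92 spike-in RNAs moved the median of all transcripts between EN and CV to -0.49 log2, and the deposited mRNA copy numbers moved it to 0.72, against -0.08 with TMM. Relative to that median, the EN versus CV change was between -1.42 and -1.33 for Acat1 over 11 settings, between -1.28 and -1.20 for Bdh1, between -1.0 and -0.95 for Oxct1, between -0.50 and -0.46 for Cpt1a and between 0.68 and 0.84 for Cpt2. A change of scaling moves all transcripts nearly alike, so subtracting the median removes most of it. The narrow ranges therefore do not show which scaling is right, and a change common to all transcripts is removed as well. Read without subtracting the median, only Cpt2 was called between EN and CV in copies (1.56 log2), beside 5513 of all transcripts. Acat1 at -0.70, Bdh1 at -0.56 and Oxct1 at -0.27 missed the threshold. Cpt1a was 0.25 log2 higher in EN than in CV on the copy number scale (adjusted p = 0.38), and Cpt2 lost its call with spike-in scaling (0.25, adjusted p = 0.22, edgeR). In copies, Cpt2 averaged 27.2 ± 4.45 in CV, 14.1 ± 3.80 in ENR and 80.4 ± 15.7 in EN (SD, n = 4), and Acat1 82.1 ± 14.9, 68.4 ± 23.4 and 50.4 ± 7.74.

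Levels of different genes can be compared only per transcript length, as TPM, which divides each count by transcript length before scaling to a fixed total. In CV, Oxct1 was highest at 204 ± 5.38 TPM (SD, n = 4), followed by Bdh1 at 146 ± 6.58, Acat1 at 125 ± 3.83, Cpt1a at 71.6 ± 5.39 and Cpt2 at 45.3 ± 1.31. In ENR, Bdh1 at 104 ± 4.88 and Acat1 at 101 ± 0.793 led and did not differ beyond their spread. In EN, Oxct1 was still highest at 80.1 ± 5.84, but Cpt2 came next at 57.6 ± 3.53, above Bdh1 at 47.9 ± 3.29, Cpt1a at 39.5 ± 1.88 and Acat1 at 37.9 ± 3.4, the last 2 overlapping.

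The ratio of 2 members within a library does not depend on library scaling. These ratios were chosen after the values had been seen, and 30 comparisons were made. The TPM ratio of Cpt2 to Cpt1a was 0.634 ± 0.0393 in CV, 0.746 ± 0.0723 in ENR and 1.46 ± 0.0568 in EN (SD, n = 4), so that Cpt2 stood above Cpt1a in all 4 EN libraries and below it in all other libraries. EN differed from CV and from ENR (exact permutation test, two-sided p = 0.0286, the smallest that 4 against 4 allows, 0.033 after Benjamini-Hochberg adjustment). Most of the 30 comparisons reached this same p, so it does not set this ratio apart from the others. CV and ENR overlapped (exact p = 0.0571). The ratio of Acat1 to Bdh1 moved least, with 0.862 ± 0.046 in CV, 0.974 ± 0.0438 in ENR and 0.791 ± 0.0709 in EN, and CV and EN overlapped (exact p = 0.2). Both differed from ENR without overlap, by -0.18 log2 for CV and -0.30 for EN (exact p = 0.0286, 0.033 adjusted).

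**Figure D3:**
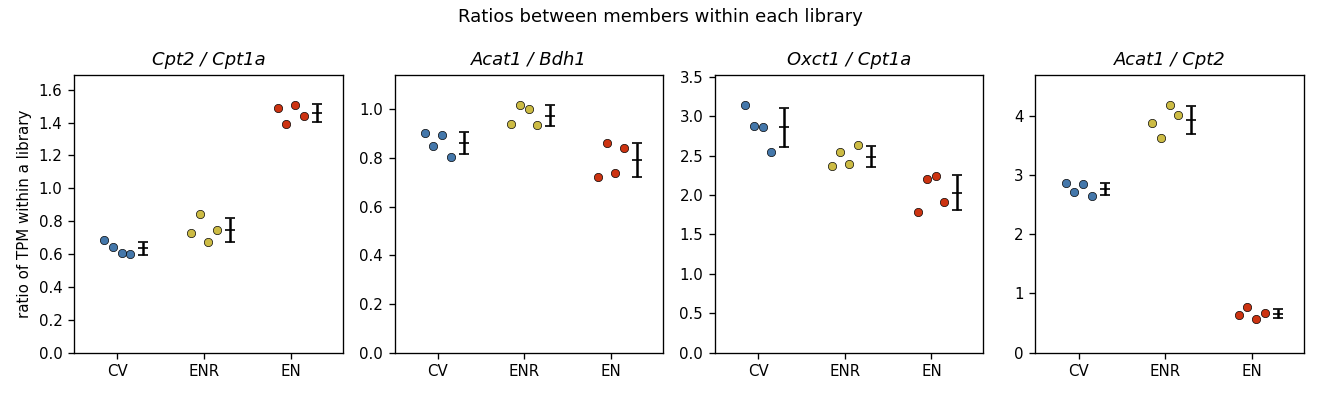
Ratios of TPM between members within each library (y axis, linear from 0) for 4 of the 10 pairs, by culture (x axis); each point is 1 library, with mean and SD (n = 4) beside it. Cpt2 over Cpt1a averaged 1.46 in EN against 0.634 in CV, and Acat1 over Cpt2 averaged 0.66 in EN against 2.77 in CV.

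Slc16a1, a monocarboxylate transporter that carries ketone bodies and is named here after its values were seen, fell by 1.21 log2 from CV to EN, and its relative Slc16a6 rose by 1.23 (100 ± 3.02 against 42.5 ± 4.06 CPM).

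Of the other carnitine genes, 6 of 7 transcripts were higher in EN than in CV and 1 was lower, with a median of 0.66 log2. Of the 11 genes in this list only 6 were present, and Aldh9a1 was counted more than once. Bbox1, the last enzyme of carnitine synthesis, rose by 3.52 from 9.83 ± 0.745 to 113 ± 8.12 CPM. Crat, carnitine acetyltransferase, rose by 2.67 and Crot, the octanoyltransferase, by 0.68, both named after their values were seen. Slc25a20, the carrier that exchanges acylcarnitine and carnitine between Cpt1a and Cpt2, was the one that fell, by 0.34 (182 ± 4.78 to 144 ± 4.61 CPM). With spike-in scaling 2 of the 7 were higher and 1 lower, beside 1473 higher and 4292 lower of all transcripts. On the copy number scale 6 were higher and none lower, beside 4286 higher and 1227 lower of all transcripts.

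In the list for malonyl-CoA, the inhibitor of Cpt1a, 2 of 13 transcripts rose and 7 fell from CV to EN. This list mixes enzymes that make, use or remove malonyl-CoA with kinase subunits, so its counts give no direction for malonyl-CoA itself. Acacb, the mitochondrial-surface acetyl-CoA carboxylase, fell by 3.73 log2 (20.0 ± 0.744 to 1.45 ± 0.575 CPM), and Prkag2, a subunit of the AMP-activated kinase, rose by 1.75. Acacb averaged 1.22 ± 0.701 CPM in ENR, and no difference between EN and ENR was detected (0.27 log2, adjusted p = 0.52, edgeR). CV was higher than ENR by 4 log2 (adjusted p = 5.6e-09, edgeR), so Acacb was high in CV only. Of 11 acyl-CoA synthetases, 4 rose and 7 fell from CV to EN. Those of long chains prepare fatty acids for Cpt1a, but the list also held Acss1, Acss2, Acss3 and Acsm3, which act on shorter chains. These shorter-chain members all fell, at -0.95, -0.67, -4.09 and -3.91 log2, while the other synthetases went in both directions. The list ran from Slc27a2 at 4.05 to Acss3 at -4.09, the latter from only 2.34 ± 1.05 CPM. In β-oxidation, 10 of 19 rose and 4 fell, from Acad11 at 2.18 to Eci2 at -0.88. With spike-in scaling the β-oxidation count was 3 higher and 5 lower, beside 1473 higher and 4292 lower of all transcripts. The median of the β-oxidation list turned from 0.23 to -0.18. The median of all transcripts moved with it, from -0.08 to -0.49. In the breakdown of branched-chain amino acids, another source of acetoacetate and acetyl-CoA, 4 of 15 rose and 10 fell, from Auh at 0.89 to Bckdhb at -4.51. Among 14 transcripts of regulators, 10 rose and 1 fell. Hnf4g rose by 3.52 log2 (122 ± 5.03 to 1410 ± 105 CPM), Foxa2 fell by 1.38, and Hnf4a, named after its value was seen, did not pass the test at -0.05. With TMM scaling, these counts from CV to EN stand beside 35.2% of all transcripts higher and 41.2% lower. From ENR to EN, 7 carnitine transcripts were higher and none lower. Higher and lower counts were 4 and 6 for malonyl-CoA, 4 and 7 for acyl-CoA synthetases and 15 and 1 for β-oxidation. They were 3 and 9 for branched-chain amino acid breakdown and 11 and 1 for regulators, beside 3301 and 3455 of all transcripts.

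The transcripts whose log2 CPM was most like each member over the 12 libraries were sought among 7999 with a mean of at least 10 CPM. For Acat1 they were Pes1, Gtpbp4 and Cct8 (Pearson correlation 0.997 each), for Bdh1 Ripk3, Tmem9 and Tomm40 (0.997, 0.995 and 0.995) and for Oxct1 Sep15, Got1 and Prdx6 (0.992, 0.991 and 0.991). For Cpt1a they included Acot1 and Aplp2 (0.982 and 0.98), and for Cpt2 Tgoln1, Abhd1 and Entpd5 (0.993 each). By Spearman rank, Prdx6 was first for Oxct1, whereas Cct8 was only 397th for Acat1.

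The chromatin table held 36 regions within the 5 genes or the 10 kb before them, out of 94469. Of these, 6 overlapped an exon, 24 lay in introns and 6 upstream, and 6 were promoter regions, that is, within 500 bp of an annotated start. Bdh1 had 2 promoter regions, a weak one at its first start (chr16:31422190-31422441) and a strong one at the next (chr16:31428555-31430165), and the others 1 each. Coordinates are those deposited, on mm9, and whether they count from 0 or 1 was not stated. The strong Bdh1 region also lies by the start of Gm15743, and that of Oxct1 by the start of the noncoding BC037032, so their scores cannot be assigned to 1 gene.

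H3K27ac, a mark of active promoters and enhancers, was called higher in EN than in CV at the promoters of both carnitine transferases and at no promoter of Acat1, Bdh1 or Oxct1, and the difference between the genes was not tested. The summed scores of all regions were also higher in EN, at 1622000 to 1761000 against 1346000 to 1407000 in CV. Quantile normalization, which makes the distributions of the libraries equal, was one of the alternatives tried for each call. Regions with a score of 0 numbered 5, 411 and 11341 in the CV libraries and 1379, 17027 and 10185 in EN. CV alone held valproic acid, and its part in the normalized scores was not tested. At the Cpt2 promoter region (chr4:107594591-107596412, first exon with its coding start and part of the first intron) the normalized score was 138, 120 and 88 in CV, 163, 124 and 117 in ENR, and 315, 296 and 345 in EN. All EN libraries were above all others. The score was higher in EN than in CV by 1.48 log2 (SE 0.20, adjusted p = 7.01e-06, limma on log2 of score + 1) and than in ENR by 1.25 (adjusted p = 0.000468). With quantile normalization the differences were 0.80 and 0.98, both still called. Without the trend of the spread on the level, which left the sizes as they were, neither was called (adjusted p = 0.085 and 0.23, limma). With the replicate block, which compares libraries within a replicate number, they were 1.29 and 1.40 and not called. Only 5 pairs of H3K27ac libraries from different cultures shared a number, so that fit had few comparisons to use. Its lost calls cannot decide whether the differences hold.

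At the Cpt1a promoter region (chr19:3323145-3324619, first exon and intron) H3K27ac was 113, 124 and 104 in CV, 132, 114 and 120 in ENR, and 163, 217 and 232 in EN. EN lay above both, by 0.83 log2 over CV (SE 0.209, adjusted p = 0.0112) and 0.72 over ENR (adjusted p = 0.0709). With quantile normalization the first difference fell to 0.20 and lost its call, and it was also lost without EN replicate 3 (adjusted p = 0.084) or EN replicate 4 (adjusted p = 0.11). Cpt1a RNA was lower in EN than in CV, while in each EN library this score was above every CV library.

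At the Acat1 promoter region (chr9:53417511-53418648, first exon and intron) H3K27ac was 36, 58 and 53 in CV, 44, 24 and 22 in ENR, and 22, 21 and 22 in EN. EN lay below CV in all libraries, but the difference, which was -1.11 log2, did not pass the test over all regions (adjusted p = 0.0965). It passed with quantile normalization (-1.40, adjusted p = 0.033). The Oxct1 promoter region (chr15:3976324-3977586, first exon and intron) showed 49, 31 and 65 in CV, 34, 53 and 51 in ENR, and 42, 47 and 39 in EN. These overlapped (EN versus CV -0.12, adjusted p = 0.897), although Oxct1 RNA was 2.05-fold higher in CV. The strong Bdh1 region averaged 84.7 ± 19.0, 97.7 ± 5.69 and 65.7 ± 17.0, with no call.

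For H3K27ac, 2 of the 6 promoter regions were called between EN and CV, against 19.0% of all promoter regions tested, 1 of 6 between EN and ENR, against 3.72%, and none between CV and ENR, against 6.82% (none at an unadjusted p under 0.05). When the trend of the spread on the level was left out of the limma fit, none of the 6 was called between EN and CV, Cpt2 included.

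**Figure D4:**
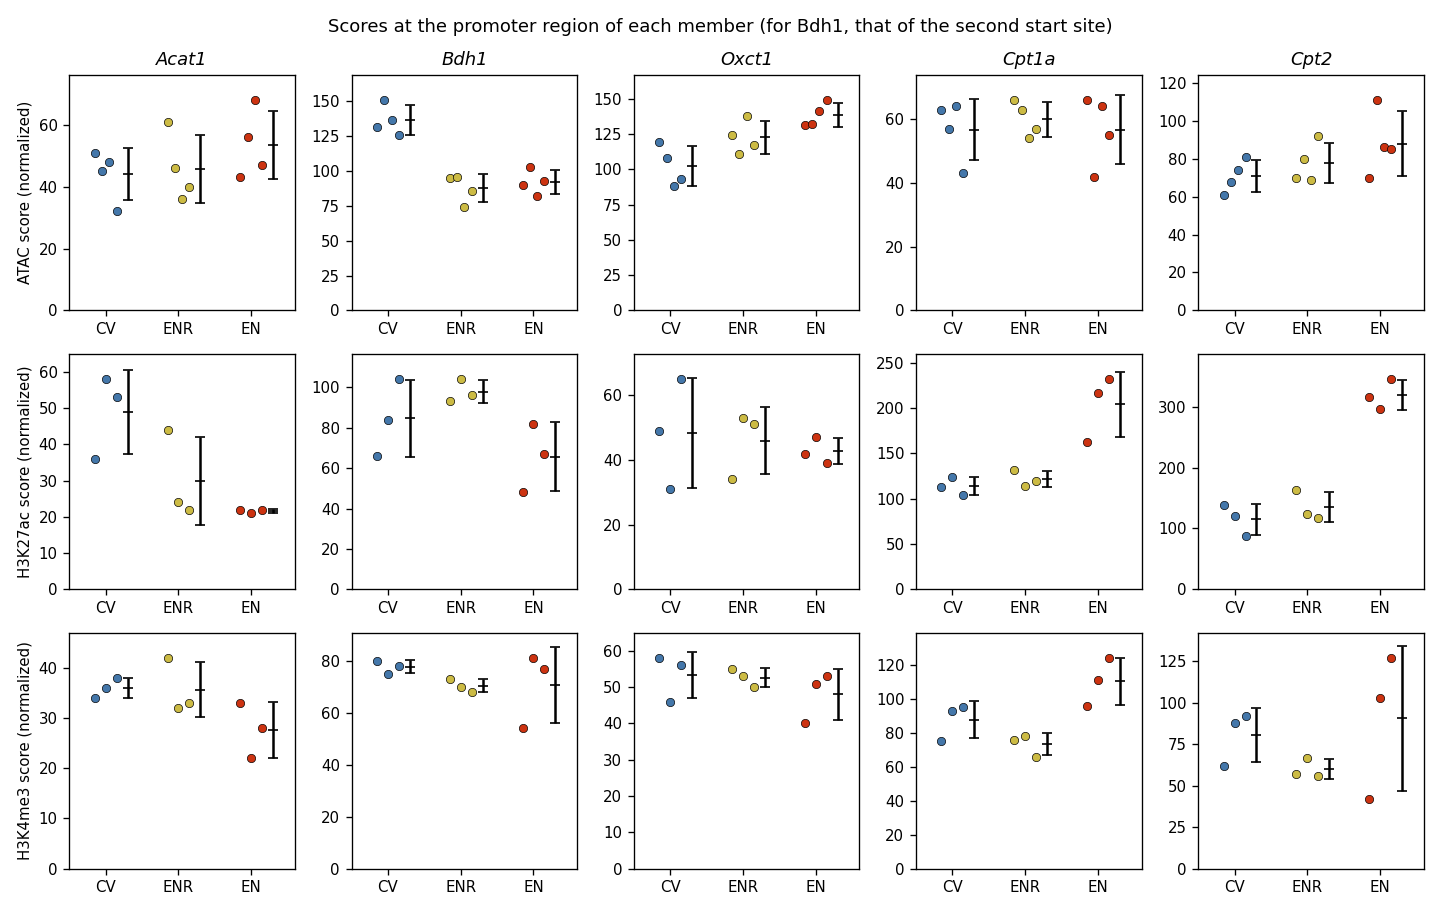
Normalized scores (y axis, linear from 0) of ATAC, H3K27ac and H3K4me3 at 1 promoter region of each gene, by culture (x axis); each point is 1 library, with mean and SD beside it (n = 4 for ATAC, 3 for the marks). H3K27ac at Cpt2 was between 296 and 345 in EN and at most 163 elsewhere, while ATAC at Cpt2 overlapped between cultures.

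For accessibility, 3 of the 6 promoter regions changed between EN and CV, against 34.5% of all promoter regions, none between EN and ENR, against 19.8% (1 at an unadjusted p under 0.05), and 1 between CV and ENR, against 14.6%. The strong Bdh1 region scored 132, 151, 137 and 126 in CV, 95, 96, 74 and 86 in ENR, and 90, 103, 82 and 93 in EN. CV stood apart, by 0.57 log2 over EN (adjusted p = 0.000722) and 0.64 over ENR (adjusted p = 0.000884, limma). The Oxct1 promoter was more accessible in EN, where its RNA was lower, with 119, 108, 88 and 93 in CV and 131, 132, 141 and 149 in EN (0.44, adjusted p = 0.0045), but the difference was 0.23 and lost its call with quantile normalization, and the call was also lost without the trend. The weak Bdh1 region, which averaged 9.25 in CV and 5.25 in EN, was called at an adjusted p of 0.0428, close to the threshold, its libraries overlapped, and the call was lost without any 1 of 9 of the 12 libraries. ATAC at Cpt2 averaged 71.0 ± 8.52 in CV and 88.0 ± 17.0 in EN and was not called (adjusted p = 0.129), but it was without EN replicate 1, at 0.40 log2.

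H3K4me3, a mark of promoters in use, changed at 1 of the 6 regions between EN and ENR, against 5.72% of promoter regions, and at none between EN and CV, against 9.6% (1 at an unadjusted p under 0.05), or between CV and ENR, against 0.935% (none at an unadjusted p under 0.05). That region was Cpt1a, with 76, 78 and 66 in ENR and 96, 111 and 124 in EN (0.58 log2, SE 0.136, adjusted p = 0.0486). This call was lost under 5 other settings and without any 1 of 7 of the libraries. At Cpt2, EN replicate 1 scored 42 and the other EN libraries 103 and 127. Without EN replicate 1 the EN to ENR difference was 0.92 (adjusted p = 0.037, limma). That library differed beyond Cpt2, with 7193 regions at a score of 0 against 31170 and 20990 in the other EN libraries. H3K27me3, a mark of repressed chromatin, was scored over regions widened to 1000 bp and was low, with culture means between 2.00 and 13.7 at the promoters. None of the 6 was called between EN and CV, EN and ENR, or CV and ENR, against 0.37%, 0.0498% and 1.6% of promoter regions, and 0, 1 and 2 of them had an unadjusted p under 0.05.

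Away from the promoters, both Oxct1 and Cpt1a held regions that moved in opposite directions. The regions named here were singled out after their values had been seen. Over all 36 regions, ATAC changed at 11 between EN and CV (6 higher, 5 lower), against 35.2% of all regions tested, and H3K27ac at 4 (3 higher, 1 lower), against 7.03%. In an early Oxct1 intron (chr15:3983577-3984080), H3K27ac was 42, 34 and 38 in CV, 22, 7 and 12 in ENR, and 1, 9 and 10 in EN, which was -2.69 log2 from CV to EN (SE 0.586, adjusted p = 0.00306). CV lay above both other cultures there, as for Oxct1 RNA, but CV and ENR were not called (adjusted p = 0.177, limma). ATAC at that region was also lower in EN (-0.78, adjusted p = 0.00153).

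Further into Oxct1, at chr15:4095334-4095770, ATAC rose from 14, 6, 7 and 9 in CV to 29, 25, 36 and 36 in ENR and 63, 48, 78 and 74 in EN. This was a rise of 2.78 log2 from CV to EN (SE 0.227, adjusted p = 6.54e-08), with no overlap between cultures. At chr15:4029716-4030162 ATAC averaged 29.5, 58.0 and 92.8 in CV, ENR and EN (1.59, adjusted p = 3.3e-06). H3K27ac at these latter regions was low in every library, between 1 and 14. In a Cpt1a intron, at chr19:3334108-3334488, ATAC was 25, 37, 27 and 31 in CV and 6, 20, 16 and 17 in EN, which was -1.07 log2 (adjusted p = 0.00382). Further into Cpt1a, at chr19:3345126-3345560, it was 13, 12, 7 and 6 in CV and 38, 23, 23 and 19 in EN (1.37, adjusted p = 0.000843), so that neither pair of groups overlapped. H3K27ac at chr19:3334108-3334488 went the other way from ATAC, at 6 to 12 in CV and 17 to 25 in EN, but was not called. At chr19:3345126-3345560 H3K27ac overlapped, at 19 to 30 in CV and 16 to 38 in EN. Within Cpt2, H3K27ac at chr4:107594259-107594532, beside the promoter, was 5, 40 and 27 in CV and 81, 77 and 65 in EN (1.98, adjusted p = 0.00841). The H3K27ac calls at this region and at the early Oxct1 intron remained with quantile normalization (1.80 and -2.92), but both were lost without the trend or with the replicate block. The Oxct1 one was also lost without EN replicate 2, and the Cpt2 one without CV replicate 3 or any 1 EN library.

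Hnf4g reads were counted in 1 library of each culture, so there is no test, and intervals cover counting error only. The libraries held 84340 reads in all regions in CV, 352600 in ENR and 1816497 in EN. Shares are given as RPM, reads in a region scaled to a fixed total of a library's reads in all regions, with exact 95% Poisson intervals. A count of 0 in CV allows a share of up to 43.7 RPM by this interval, more than the share found at several EN regions, so that many differences from CV were not detectable at this depth.

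The Cpt1a intron region shown above (chr19:3325390-3325718) had 5, 14 and 244 reads in CV, ENR and EN. Its share was 134 RPM in EN (118 to 152), 39.7 in ENR (21.7 to 66.6) and 59.3 in CV, where 5 reads allow up to 138. Its 744 reads per kb in EN were matched or exceeded by only 0.0445% of all regions, where the median was 19.5. ATAC there averaged 35.2 in CV, 40.8 in ENR and 30.8 in EN and was not called. H3K27ac was 12, 13 and 9 in CV, 21, 31 and 14 in ENR, and 27, 33 and 35 in EN, without overlap between EN and CV but not called (1.41 log2, adjusted p = 0.0599).

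The Cpt1a promoter region had 0, 28 and 230 reads, that is, 127 RPM in EN (111 to 144) and 79.4 in ENR (52.8 to 115). The Cpt2 promoter region had 2, 5 and 118 reads, 65.0 RPM in EN (53.8 to 77.8) and 14.2 in ENR (4.60 to 33.1). The strong Bdh1 region had 0, 2 and 109 reads, 60.0 RPM in EN (49.3 to 72.4), although Bdh1 RNA was lowest there. Oxct1 had 0, 7 and 72 reads and Acat1 0, 5 and 28.

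Per kb, the EN counts at the promoters ranged from 24.6 at Acat1 to 156 at Cpt1a, leaving out the weak Bdh1 region at 15.9, beside a median of 35.2 over all promoter regions. At Cpt2 (64.8) and at the strong Bdh1 region (67.7) they were similar, while RNA rose in EN for Cpt2 and fell for Bdh1. At Acat1, 63.5% of all promoter regions had at least as many reads per kb.

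**Figure D5:**
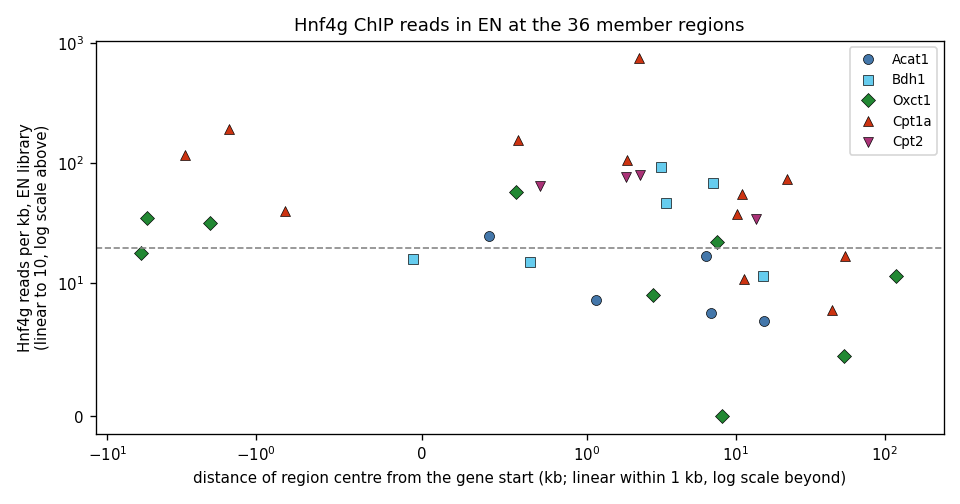
Hnf4g reads per kb in the EN library (y axis, linear to 10 and logarithmic above) at the 36 regions of the 5 genes, against the distance of each region's centre from the gene start (x axis, kb, linear within 1 kb and logarithmic beyond). The dashed line is the median of all regions, 19.5 reads per kb, and the Cpt1a intron region stands highest at 744.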

How the data were processed

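The members, gene lists and tests were chosen with earlier results of these data known. RNA was sequenced after ribosomal RNA depletion with spike-in RNAs added. The authors quantified reads with kallisto (0.43.0 per the submitters' processing notes, a later release per the methods) on RefSeq transcripts, kept transcripts with a quantified protein, and deposited estimated counts per transcript. They also deposited TPM values, scaled by transcript length, and mRNA copies set by the spike-ins, a signal whose denominator is not stated. For ATAC and histone marks, the authors aligned reads to mm9 with BWA, removed duplicates with Picard, called peaks with MACS2 2.0, merged them and deposited a normalized, rounded score per region and library. For Hnf4g the deposited values are read counts per region.

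Estimated counts were rounded and fitted over all 3 cultures in edgeR 4.0.16 (R 4.3.3; TMM scaling, quasi-likelihood test, Benjamini-Hochberg adjustment, called under 0.01) for the 9288 transcripts above 0 in at least 4 libraries. Scores were fitted as log2(score + 1) in limma 3.58.1 with a trend and called under 0.05. Promoter regions lie within 500 bp of a GENCODE vM1 start. Alternatives included DESeq2 1.42.0, other scalings, pseudocounts, filters, a replicate block and leaving out each library. Both fits were tested on simulated data. Beside the members, the highest and lowest called transcript of each list from CV to EN, the 3 transcripts most like each member, the promoter regions and the region of each gene with the most Hnf4g reads in EN were named by rule. Some items the rule names, and the list of other ketone body genes, are not reported here. The lists were carnitine, malonyl-CoA, acyl-CoA synthetases, β-oxidation, branched-chain amino acid breakdown and regulators. Counting intervals, exact Poisson at 95%, cover counting error only. RNA libraries of wild-type and Hnf4g knockout organoids in ENR were not analysed here.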

Additional observations from a re-analysis of the deposited data

Results flagged for a closer look

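Of 36 groups of 4 libraries examined for a value apart from the rest (15 of RNA, 21 of ATAC), 2 held one, where chance gives about 1 in 20. Oxct1 RNA in ENR was 211 CPM in replicate 4 and between 199 and 200 in the others. The ATAC score at the intronic Cpt1a region with the most Hnf4g reads (starting at base 3325390 of chromosome 19) was 27 in CV replicate 4 and 38 in each of the others.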

How the results depend on the processing

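Over all alternatives, 389 of the RNA results were rated the same, 9 stronger, 9 weaker, 5 reversed and 2 moved. Of the 389, 213 came from leaving out 1 library. A fold change was rated the same if it kept its direction and side of the threshold. A number of members called could be rated the same after a small shift, such as 4 to 5 between CV and ENR. For the other results, the cause was not tested, other than that spike-in scaling and copy numbers move all transcripts together. The difference of Acat1 between CV and ENR passed the threshold at 0.15 with a minimum of 10 counts, with only these cultures fitted or with counts summed per symbol, at 0.30 and 0.31 on log2(TPM + 1) and log2(TPM + 0.1), and without EN replicate 2, 3 or 4, and leaving out any 1 library gave 0.13 to 0.17. Oxct1 between EN and ENR turned to -0.11 on both TPM scales and to -0.48 with spike-in scaling, and was called at 1.07 in copies. With spike-in scaling Cpt1a between EN and ENR turned to -0.16. Calls were then lost for Cpt2 from CV to EN (0.25) and, between CV and ENR, for Bdh1 (0.24) and Cpt2 (0.56). This left 2 of 5 members called between CV and ENR, beside 2636 of all transcripts. In copies Cpt1a from CV to EN turned to 0.25, and calls were lost there for Acat1 (-0.70), Bdh1 (-0.56) and Oxct1 (-0.27). This left 1 member called from CV to EN, beside 5513 of all transcripts. Calls in copies were also lost for Acat1 (-0.38) and Bdh1 (-0.05) between EN and ENR, and for Bdh1 between CV and ENR (0.51).

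Of the 6 promoter regions, ATAC called 1 between EN and ENR with quantile normalization, and 0 to 1 when 1 library was left out (1 without EN replicate 1). H3K27ac called 0 without the trend and 0 with the replicate block, both for EN against CV and for EN against ENR. For this mark only 5 pairs of libraries shared a number across cultures, so the lost calls with the block cannot decide. Leaving out 1 library gave 1 to 2 against CV (1 without EN replicate 3 or 4) and 1 to 2 against ENR (2 without CV replicate 3). H3K4me3 called 0 between EN and ENR with a pseudocount of 5, quantile normalization, no filter, no trend or the replicate block, and 0 to 2 when 1 library was left out (2 without EN replicate 1, 0 without 7 of the 9 libraries). Libraries with the same number had little shared deviation in RNA (mean correlation 0.017, from -0.0783 to 0.116), and more in ATAC (mean 0.17, from 0.0695 to 0.46, against -0.0557 for other pairs), where all pairs were positive but not all above 0.1. Numbers were therefore not taken as pairs. The replicate block changed no RNA call of a member, and in ATAC it took the call of the weak Bdh1 promoter region between EN and CV (-0.73, adjusted p = 0.053).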
